A study of Mus musculus with 4 samples.

Results

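The RGS genes encode regulators of G protein signalling, and 10 of them were followed here by symbol: Rgs2, Rgs3, Rgs4, Rgs5, Rgs10, Rgs12, Rgs14, Rgs16, Rgs19 and Rgs20. They are 10 of the 23282 rows of the count tables, each with 1 row. Rgs20 was chosen by its counts in the only comparison of the study, ERRγ against GFP, and the other members were chosen by name with results of that comparison known. Their values are therefore given as a description, and no p-value is printed for a member. The cells were primary acinar cells from the pancreas of C57BL/6J mice, kept in serum-containing medium with trypsin inhibitor and 25 ng/ml epidermal growth factor. In the first group, an adenovirus delivered estrogen-related receptor γ (ERRγ, gene Esrrg), an orphan nuclear receptor that activates genes of oxidative metabolism. In the second group, an adenovirus delivered green fluorescent protein (GFP). Both viruses were used at a multiplicity of infection of 100 for 36 h, so the cells of both groups had been exposed to a virus. The promoter that drove Esrrg is not given in the sources used here, and the whole culture was harvested. There were 2 libraries in each group, and the labels do not say whether they came from separate animals or cultures, so the spread between them may be technical.

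Heterotrimeric G proteins are switched on when a receptor loads GTP onto the α subunit, and off when the α subunit hydrolyses it. RGS proteins bind the active α subunit through a shared RGS domain and speed up the hydrolysis, which shortens the signal. In pancreatic acinar cells, receptors for acetylcholine and cholecystokinin act through Gq, phospholipase C β and IP3 receptors to release calcium and trigger enzyme secretion, and RGS proteins are known to shape these calcium signals. The family is split by sequence. The R4 subfamily holds small proteins with little beyond the RGS domain (Rgs2, Rgs3, Rgs4, Rgs5 and Rgs16 here, of which Rgs3 also has longer forms). The R12 subfamily holds Rgs10, Rgs12 and Rgs14, and the RZ subfamily holds Rgs19, Rgs20 and the non-member Rgs17.

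The RZ proteins carry a string of cysteines before the RGS domain, which can be fatty acylated and holds the protein at membranes. It is shown because Rgs20, the entry gene, and its relatives Rgs19 and Rgs17 gave different values in the same libraries. In each gene's coding sequence (GENCODE M21 transcripts, GRCm38) the window of 16 codons with the most cysteine codons was taken, and the capitals mark the codons TGC and TGT.
Rgs20: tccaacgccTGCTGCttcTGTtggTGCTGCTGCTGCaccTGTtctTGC
Rgs19: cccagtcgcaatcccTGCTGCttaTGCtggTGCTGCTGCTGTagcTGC
Rgs17: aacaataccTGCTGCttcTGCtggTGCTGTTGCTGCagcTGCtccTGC
The window held 9 cysteine codons in Rgs20 (codons 56 to 71 of transcript Rgs20-201), 8 in Rgs19 (codons 34 to 49 of Rgs19-201) and 9 in Rgs17 (codons 25 to 40 of Rgs17-204). The longest unbroken run was 4 codons in all 3 genes. The windows lie on the minus strand of chromosomes 1, 2 and 10. The counts come from transcript ends, so they do not tell isoforms with and without this stretch apart.

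ERRγ libraries 1 and 2 held 10480878 and 10645277 counts, and GFP libraries 1 and 2 held 10105604 and 11012351. Levels are given as CPM, a gene's counts relative to the size of its library, after TMM, a method that balances composition between libraries. QuantSeq libraries are read from transcript ends and give about a read per transcript whatever its length, so CPM was compared between genes without a length correction. Esrrg, the gene that the virus carried, had 1453 and 12994 counts in ERRγ libraries 1 and 2, against 86 and 107 counts in GFP libraries 1 and 2. The ERRγ libraries thus differed in Esrrg from each other by far more than the GFP libraries did. The acinar label was weakly borne out by markers. Of 14 acinar markers, Ptf1a had no count in any library, and the list summed to 107 and 106 CPM in ERRγ cells, against 119 and 55.7 CPM in GFP cells. The 7 duct markers summed to 2677 and 3356 CPM in ERRγ cells, against 3690 and 3591 CPM in GFP cells. In bulk RNA, fewer cells of a type and less RNA per cell cannot be told apart.

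Rgs20 was higher and Rgs12 lower in ERRγ libraries than in GFP libraries, and no other member passed the threshold. Of the 10 members, 9 passed the filter on low counts, and Rgs14 did not. Rgs20 passed it through the ERRγ libraries alone, the group where it is high. Its call, its rank and its lack of overlap are therefore description and no support for a difference. Rgs20 was the 1 member past the threshold upward (adjusted p under 0.05 in edgeR's quasi-likelihood fit of all genes) and Rgs12 the 1 member past it downward. The background of this fit was 5.06% of 13070 tested genes called higher, 1.78% called lower and 6.84% called in either direction. Nothing is read from the members' count, since the same contrast chose the entry gene. In 4 of the 9 tested members (Rgs2, Rgs3, Rgs12 and Rgs20) the groups did not overlap, against 54.0% of all genes tested. The median log2 fold change of the 9 tested members was 0.12, and that of all tested genes was −0.01. Of these 9, 5 had a log2 fold change above 0 and 4 below 0.

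**Figure D1:**
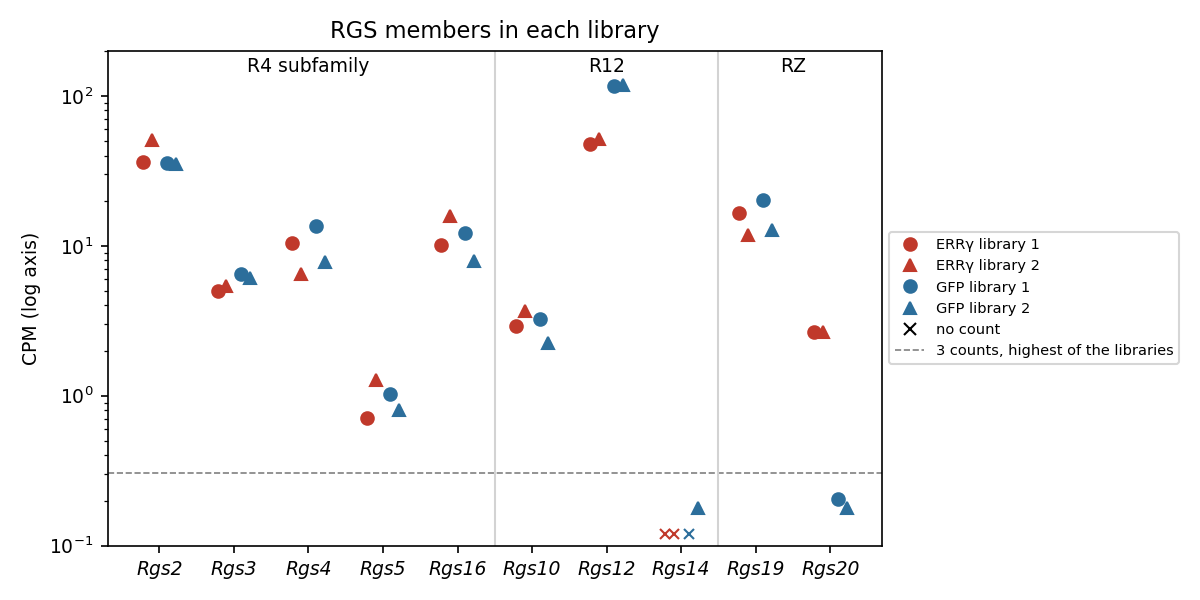
CPM (log axis) of each member in each library, ordered by subfamily, the ERRγ libraries in red left of the GFP libraries in blue; circles are library 1, triangles library 2, crosses mark no count, and the dashed line is the CPM of 3 counts in the library where it is highest. Rgs12 is lower in both ERRγ libraries, at 48.0 and 51.5 CPM, and Rgs20 is above the line in the ERRγ libraries alone.

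Rgs20 encodes RGSZ1, which acts on Gαz and other α subunits of the Gi class and is best known from the brain. It had 30 and 27 counts in ERRγ libraries 1 and 2, against 2 and 2 counts in GFP libraries 1 and 2. Both GFP values lie below the floor of 3 counts, so the GFP level itself is poorly known. As CPM, these were 2.67 and 2.66 in ERRγ cells, against 0.204 and 0.179 in GFP cells. The ERRγ libraries gave nearly the same value while their Esrrg counts differed greatly, and a relation between the 2 genes was not tested. Summed over libraries, 57 counts against 4 give a ratio of 14.0, with an exact 95% interval of 5.17 to 53.0 that covers counting error only. The interval covers neither the spread between libraries nor the choice of Rgs20 by these counts, so it is no test. The fitted log2 fold change was 3.72 (SE 0.71), which ranked 95th from the top among the 13070 tested genes. Rgs20 lost its call without GFP library 1 (log2 fold change 3.81) and without GFP library 2 (3.63). Most calls over all genes were lost in both of these fits. Rgs20 was a low transcript in both groups: its mean of 2.67 CPM in ERRγ cells was close to that of Rgs10 and far under that of Rgs12. The gene spans chromosome 1, 4909576 to 5070285, on the minus strand (GRCm38). Its start overlaps the start of Atp6v1h, a subunit of the vacuolar proton pump, on the opposite strand, and exons of both share bases there, though not in the last exon of Rgs20. Atp6v1h had 565 and 544 counts in ERRγ cells, against 455 and 538 in GFP cells, which is a log2 fold change of 0.13 (edgeR adjusted p = 0.607). Other overlapping annotations (Gm17100, Gm37079, Gm16041 and Gm17101) share no base with the last exon of Rgs20 and have no row of their own in the tables. Of the nearest coding neighbours, Tcea1 had 440 and 380 counts in ERRγ cells, against 306 and 386 in GFP cells. Oprk1, the κ opioid receptor, had 2 and 3 counts in ERRγ libraries and 1 and 0 in GFP libraries, too few to test.

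The RZ relatives of Rgs20 were more abundant, with smaller differences between the groups. Rgs19, also called GAIP, acts on Gαi subunits and binds the scaffold GIPC. It had 186 and 120 counts in ERRγ libraries 1 and 2, against 199 and 143 in GFP libraries 1 and 2. The first library of each group was the higher, and the groups overlapped (14.2 ± 3.35 CPM in ERRγ cells, against 16.6 ± 5.31 CPM in GFP cells, SD, n = 2 each). Its log2 fold change was −0.22 (SE 0.30). Rgs17, or RGSZ2, is not a member. It had 377 and 461 counts in ERRγ cells, against 294 and 296 in GFP cells, so both ERRγ libraries lay above both GFP libraries. At 39.5 ± 8.41 CPM in ERRγ cells, against 28.3 ± 2.48 CPM in GFP cells (SD, n = 2 each), its log2 fold change of 0.48 (SE 0.19) did not pass (adjusted p = 0.178, edgeR). Without ERRγ library 1 its log2 fold change was 0.69 and past the threshold, in a fit whose spread comes from the GFP pair alone and which calls 20.1% of all genes. Rgs20 was the least counted of the RZ genes in both groups.

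Rgs12 was the most counted member in GFP cells. The protein is large and joins its RGS domain to PDZ, phosphotyrosine-binding and Ras-binding domains and to a GoLoco motif, which holds Gαi in its GDP-bound form. It had 539 and 522 counts in ERRγ libraries 1 and 2, against 1139 and 1314 counts in GFP libraries 1 and 2. As CPM these were 48.0 and 51.5 in ERRγ cells, against 116 and 118 in GFP cells. The groups were far apart and the libraries within each group close together (49.8 ± 2.46 CPM in ERRγ cells, against 117 ± 0.992 CPM in GFP cells, SD, n = 2 each). The log2 fold change was −1.23 (SE 0.13), a level 2.35-fold lower in ERRγ cells. The size was much the same when any library was left out, from −1.29 to −1.18. The call ended without GFP library 1 and without GFP library 2, as did most calls over all genes. Rgs12 spans chromosome 5, 34949445 to 35039644, on the plus strand, with 12 coding transcripts that end at 11 positions. Counts per symbol do not show which of these ends they come from. The antisense gene Gm43791 shares exon bases with it and Mir3097 lies in an intron, and neither has a row in the tables. Hgfac, an activator of hepatocyte growth factor that starts 1865 bases downstream on the same strand, had 707 and 580 counts in ERRγ cells, against 498 and 1022 in GFP cells, and its groups overlapped.

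Rgs12 is the member past the threshold that has an entry in the RefSeq promoter table (GRCm38.p6), with 2 start sites. The bases before each start, up to the first annotated Rgs12 exon, are shown for that reason, with the dinucleotide CG in capitals.
Rgs12 upstream start, chr5:34949198-34949444, plus strand: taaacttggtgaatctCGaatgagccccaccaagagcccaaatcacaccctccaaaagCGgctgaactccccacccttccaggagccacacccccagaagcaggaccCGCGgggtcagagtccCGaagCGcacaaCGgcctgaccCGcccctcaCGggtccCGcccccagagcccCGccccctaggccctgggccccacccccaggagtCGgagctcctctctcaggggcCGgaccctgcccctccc
Rgs12 internal start, chr5:34998828-34999056, plus strand: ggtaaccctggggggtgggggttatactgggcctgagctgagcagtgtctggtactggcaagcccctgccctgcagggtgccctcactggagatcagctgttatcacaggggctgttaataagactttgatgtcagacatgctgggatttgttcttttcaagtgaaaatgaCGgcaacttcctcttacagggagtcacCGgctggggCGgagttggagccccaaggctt
The upstream stretch is 68.4% G or C with 13 CG, and the internal stretch is 55.5% G or C with 3 CG. The median over 32851 promoter windows of mouse genes was 52.4%. The nuclear receptor half-site AGGTCA, its longer form AAGGTCA and the estrogen-related receptor element TNAAGGTCA, which contain each other, were searched on both strands of the 250 bases before each start. None was found in the 12 windows of the 8 members that the table holds (Rgs2, Rgs3, Rgs4, Rgs5, Rgs10, Rgs12, Rgs16 and Rgs19). Over all windows the shares were 14.0%, 4.08% and 1.14%. A window without a match says only that these letters are not in it. Rgs14 and Rgs20 have no entry.

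The other R12 members were low. Rgs10, a small protein that acts on Gαi and is abundant in immune cells and brain, had 33 and 37 counts in ERRγ cells, against 32 and 25 in GFP cells. The groups overlapped, and the log2 fold change was 0.26 (SE 0.47). Rgs14, a relative of Rgs12 that also binds Ras proteins and carries a GoLoco motif, had no count in ERRγ cells, against 0 and 2 counts in GFP cells. Its absence of counts allows up to 3 counts, or 0.267 and 0.296 CPM, in ERRγ libraries 1 and 2, so no fold is given. Of 12 leukocyte markers, 3 were tested and none passed, and the list summed to 9.27 and 16.6 CPM in ERRγ cells, against 12.2 and 14.7 CPM in GFP cells. Cd3e had no count in any library, and Ptprc, which all leukocytes carry, had 1 count in GFP library 1 and none elsewhere. Markers of macrophages were uneven in level. Csf1r and Cd68 lay at about the level of Rgs10 or above it. Csf1r had 42 and 72 counts in ERRγ libraries and 24 and 37 in GFP libraries. Cd68 had 27 and 67 counts in ERRγ libraries and 51 and 47 in GFP libraries. The others of the list lay lower, except Fcer1g in GFP library 2. Fcer1g had 6 and 5 counts in ERRγ libraries and 6 and 31 in GFP libraries. Cd79a, Coro1a and Laptm5 had at most 9 counts in a library. Tyrobp had 13 and 2 counts in ERRγ libraries and 14 and 12 in GFP libraries. Lyz2 had 6 and 0 counts in ERRγ libraries and 3 and 6 in GFP libraries. Itgam had 1 and 2 counts in ERRγ libraries and 1 and 0 in GFP libraries. Adgre1 had 0 and 0 counts in ERRγ libraries and 8 and 20 in GFP libraries. The part of such cells in the Rgs10 values was not tested.

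**Figure D2:**
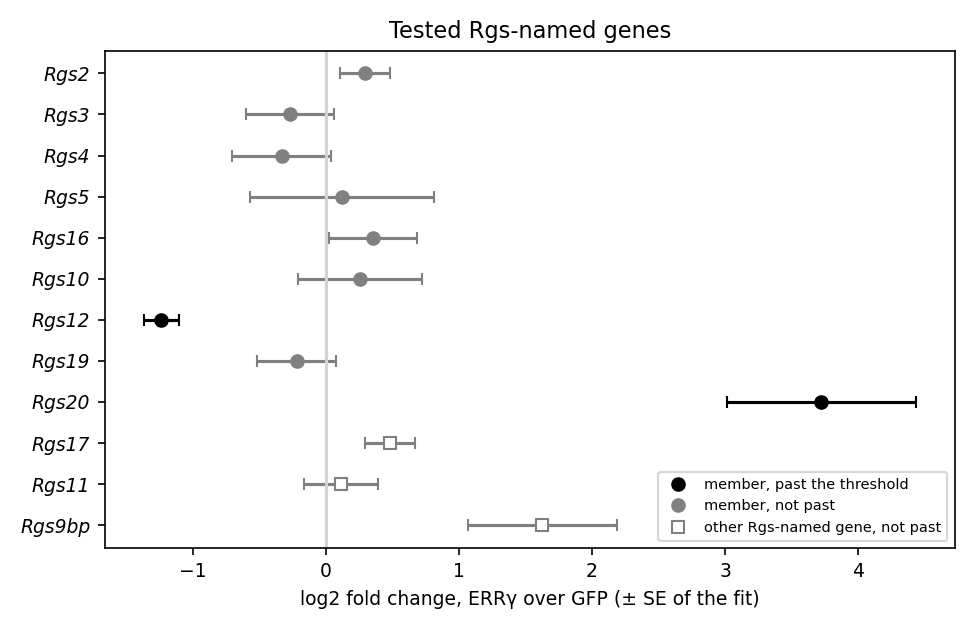
Log2 fold change of ERRγ over GFP with its standard error for the 9 tested members (circles) and the 3 tested Rgs-named genes that are not members (open squares); black marks genes past the threshold. Rgs20 lies at 3.72 and Rgs12 at −1.23, and the other members lie between −0.33 and 0.35.

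Among the R4 members, none passed the threshold. Rgs2, which acts mainly on Gαq and is known to dampen calcium signals, was the second most counted member in GFP cells. It had 404 and 516 counts in ERRγ libraries 1 and 2, against 349 and 393 in GFP libraries 1 and 2. In CPM the values were 36.0 and 50.9 in ERRγ cells, against 35.7 and 35.2 in GFP cells, so the lower ERRγ library was barely above the GFP libraries. Its log2 fold change of 0.29 (SE 0.19) rested on ERRγ library 2: it was 0.02 without that library, and 0.52 and past the threshold without ERRγ library 1, in the fit whose spread comes from the GFP pair. Rgs16, which acts on Gαi and Gαq, had 113 and 160 counts in ERRγ cells, against 120 and 89 in GFP cells. The groups overlapped, and its log2 fold change was 0.35 (SE 0.33). Without ERRγ library 2 it was −0.0029, and without GFP library 2 it was 0.08. Without ERRγ library 1 it was 0.65, and without GFP library 1 it was 0.69. The terminal exon of Rgs16 shares bases with the antisense gene Gm28513, which has no row in the tables, and the use of strand in counting is not given in the sources used here. Rgs3, which acts on Gαi and Gαq, had 56 and 55 counts in ERRγ cells, against 63 and 68 in GFP cells. It was lower in both ERRγ libraries, by a log2 fold change of −0.27 that was smaller than its SE of 0.33.

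Rgs4 and Rgs5 are neighbours on chromosome 1, 45664 bases apart and on opposite strands, and both are known from smooth muscle and pericytes. Rgs4, which acts on Gαi and Gαq, had 117 and 66 counts in ERRγ libraries 1 and 2, against 133 and 87 in GFP libraries 1 and 2. The first library of each group was the higher (10.4 and 6.51 CPM in ERRγ cells, against 13.6 and 7.80 CPM in GFP cells), and the groups overlapped. The log2 fold change was −0.33 (SE 0.37). Rgs5, a marker of pericytes, had 8 and 13 counts in ERRγ cells, against 10 and 9 in GFP cells, with a log2 fold change of 0.12 (SE 0.69). It did not follow Rgs4 across the libraries. The 11 mural cell and pericyte markers summed to 364 and 157 CPM in ERRγ cells, against 543 and 276 CPM in GFP cells, most of it from Acta2 and Tagln. That is the same order of libraries as Rgs4 and Rgs19 had, and it was noticed after the values were seen. The islet markers, with sums of 45.0 and 13.1 CPM in ERRγ cells, against 184 and 26.4 CPM in GFP cells, had this order too. Among the tested mural markers, Acta2 and Tagln had this order, and Pdgfrb, Cspg4, Des, Myh11, Notch3 and Mcam did not. The share of all genes with this order was not computed. Of 8 tested mural markers, Mcam was the 1 that fell (269 and 247 counts in ERRγ cells, against 519 and 545 in GFP cells; adjusted p = 0.00635, edgeR), and 4 of the 8 had a log2 fold change above 0 and 4 below. Notch3 had 30 and 30 counts in ERRγ libraries and 11 and 11 in GFP libraries, higher in both but not past the threshold (log2 fold change 1.41; adjusted p = 0.164, edgeR). Of the markers too low to test, Higd1b had 0 and 0 counts in ERRγ libraries and 2 and 3 in GFP libraries, and Kcnj8 and Abcc9 had at most 7 counts in a library. The part of these cells in the Rgs4 and Rgs19 values was not tested.

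Some members lie beside other Rgs genes. Of the 10, 5 (Rgs2, Rgs4, Rgs5, Rgs16 and Rgs20) lie on chromosome 1, and 4 of these are R4 genes. Of these 5, only Rgs4 and Rgs5 are close to each other. Rgs20 lies 138929053 bases from Rgs2, and Rgs16 lies 15910033 bases from Rgs5. Rgs2 begins a block with the R4 genes Rgs13, Rgs1, Rgs21 and Rgs18, and Rgs16 lies 40026 bases from Rgs8. These neighbours were nearly silent: Rgs13, Rgs21 and Rgs18 had no count, Rgs1 had 2 counts in GFP library 2, and Rgs8 had 1 count in ERRγ library 2 and 1 in GFP library 1. Within both blocks, then, a well counted gene lay beside genes at the floor.

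Of 13 further Rgs-named genes, Rgs17, Rgs11 and Rgs9bp were the 3 tested, and none passed. Rgs11, an R7 subfamily protein that pairs with Gβ5, had 174 and 180 counts in ERRγ cells, against 113 and 213 in GFP cells, so the groups overlapped. It shares exon bases with Arhgdig on the opposite strand, though not in its last exon. Rgs9bp, which encodes the membrane anchor of Rgs9 and is best known from retina, had 32 and 32 counts in ERRγ cells, against 12 and 8 in GFP cells. It was higher in both ERRγ libraries, with a log2 fold change of 1.63 (SE 0.56) that did not pass (adjusted p = 0.131, edgeR). Rgs9 itself had 3 and 9 counts in ERRγ cells, against 9 and 3 in GFP cells, too few to test. Rgs7bp, the matching anchor of R7 proteins, had 5 and 20 counts in ERRγ cells, against 9 and 8 in GFP cells. Rgs6, another R7 gene, had 14 and 2 counts in ERRγ cells, against none in GFP cells, and no fold is given. Rgs7 and Rgs22 had at most 4 counts in a library.

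The members' summed level was lower in ERRγ libraries because it includes Rgs12. With it, they summed to 132 and 150 CPM in ERRγ libraries 1 and 2, against 209 and 191 CPM in GFP libraries 1 and 2. Without it, they summed to 84.4 and 98.1 CPM in ERRγ libraries 1 and 2, against 92.8 and 73.3 CPM in GFP libraries 1 and 2, and the groups overlapped. Rgs12 took 36.3% and 34.4% of the members' counts in ERRγ cells (exact 95% intervals 33.8 to 38.8 and 32.0 to 36.9). In GFP cells it took 55.6% and 61.6% (53.5 to 57.8 and 59.5 to 63.7). These intervals cover counting error within a library only, and neither the spread between libraries nor the choice of the members. In ERRγ library 2, Rgs2 and Rgs12 were about level, at 50.9 and 51.5 CPM, while in GFP cells Rgs12 was the highest member by a wide margin.

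**Figure D3:**
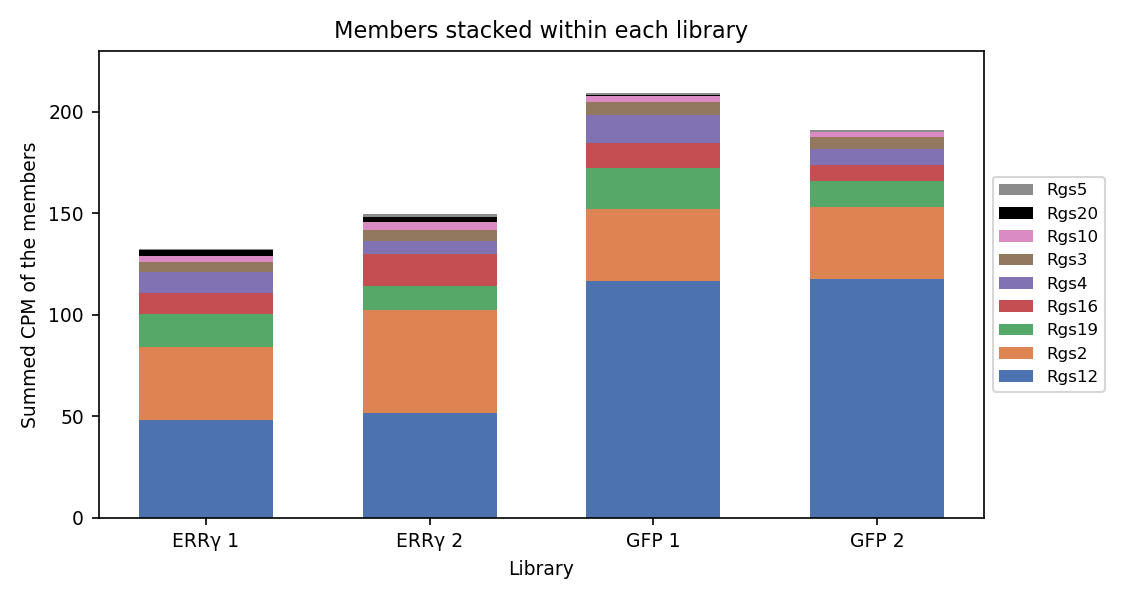
Summed CPM of the members in each library, stacked by gene with Rgs12 at the bottom (Rgs14 is too low to draw). The ERRγ libraries reach 132 and 150 CPM and the GFP libraries 209 and 191 CPM, and the Rgs12 segment differs most between the groups.

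Genes whose profile was most like that of Rgs20 were ranked by Euclidean distance over the 4 libraries, in log2 CPM centred on each gene's mean, among 10261 genes of at least 5 CPM. With only 4 libraries this ranks little beyond the size of the difference between groups. A prior count of 2 was added before the logarithm, which shrinks the difference of a low gene such as Rgs20. The nearest genes had fitted log2 fold changes of 2.63 (Chchd10) to 3.37 (B3gnt7), all under the 3.72 of Rgs20. The nearest were Tmem97, the sigma-2 receptor (distance 0.19), Osbpl1a, an oxysterol-binding protein relative (0.26), Ly6c2, whose reads may be shared with its near copy Ly6c1 (0.26), B3gnt7, a glycosyltransferase of keratan sulfate (0.27), and Chchd10, a mitochondrial protein (0.34). Tmem97 had 1139 and 1162 counts in ERRγ cells, against 127 and 148 in GFP cells, and B3gnt7 109 and 94 in ERRγ cells, against 10 and 9 in GFP cells. Their likeness to Rgs20 is what chose them and is no finding.

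The other genes of G protein signalling were called at a share near that of all genes. In 9 lists with 109 symbols, 71 genes were tested, of which 4 rose and 3 fell, or 9.86% of them, against 6.84% of all genes. The median log2 fold change over the 71 was −0.04. The 7 were 3 receptors, an α subunit (Gnai1), a cyclase (Adcy1), a scaffold (Homer2) and Nucb2. Gnai1 was the 1 of 12 tested α subunits that rose, from a class on which most RGS proteins act. It had 346 and 300 counts in ERRγ cells, against 162 and 163 in GFP cells, which is a log2 fold change of 0.96 (SE 0.18; edgeR adjusted p = 0.0216). Gnas, the most counted α subunit, stood at 9673 and 9209 counts in ERRγ cells, against 8853 and 8642 in GFP cells, which is a log2 fold change of 0.08 (edgeR adjusted p = 0.803). The α subunits had a median of 0.02. None of 10 tested β and γ subunits passed (median −0.02), Gnb1 at −0.16 being the most counted. None of 13 tested genes with an RGS domain but another name, which include the receptor kinases and RhoGEFs, passed either (median −0.34), with Arhgef12 at −0.28 the most counted.

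Of 11 listed receptors for secretagogues, 5 were tested, and those past the threshold moved both ways. P2ry2, a Gq-coupled receptor for extracellular ATP and UTP, had 537 and 485 counts in ERRγ cells, against 110 and 86 in GFP cells, which is a log2 fold change of 2.34 (SE 0.21; edgeR adjusted p = 0.00118). Chrm3, the muscarinic receptor that drives acinar secretion, had 147 and 128 counts in ERRγ cells, against 48 and 35 in GFP cells, which is a log2 fold change of 1.68 (SE 0.33; edgeR adjusted p = 0.0230). F2rl1, the protease-activated receptor cleaved by trypsin, fell, with 302 and 346 counts in ERRγ cells, against 631 and 621 in GFP cells, which is a log2 fold change of −0.98 (SE 0.17; edgeR adjusted p = 0.0152). These are 3 of 5 tested receptors (median 1.08), too few to set against the 6.84% of all genes called. Cckar and Cckbr, the cholecystokinin receptors, had no count in any library.

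Downstream of the receptors, Adcy1, a calcium-stimulated adenylyl cyclase, was the 1 of 7 tested cyclases that rose. It had 209 and 187 counts in ERRγ cells, against 52 and 47 in GFP cells, which is a log2 fold change of 1.96 (SE 0.26; edgeR adjusted p = 0.00614), while Adcy6, the most counted cyclase, stood at 0.02. The cyclases had a median of 0.02. None of 6 tested phospholipase C β and IP3 receptor genes passed (median −0.19), with Itpr3 at −0.42 the most counted. Homer2, a scaffold known to promote the action of RGS proteins on Gq in acinar cells, was the 1 of 5 tested scaffold genes that fell. It had 580 and 476 counts in ERRγ cells, against 824 and 991 in GFP cells, which is a log2 fold change of −0.81 (SE 0.14; edgeR adjusted p = 0.0137). The list had a median of −0.20, and Homer3, its most counted member, stood at 0.38 and did not pass. Nucb2, a calcium-binding protein reported to bind Gα subunits, was the 1 of 10 tested exchange factors and GoLoco-type genes that fell (2732 and 2905 counts in ERRγ cells, against 4302 and 4416 in GFP cells; log2 fold change −0.66, adjusted p = 0.0377, edgeR; list median −0.23). Homer2, Homer3, Gnas, Adcy6 and Arhgef12 share bases of a terminal exon with annotations on the opposite strand, so without strand the reads of both cannot be told apart there. The call for P2ry2 held in every alternative fit. Those for Gnai1, Chrm3, F2rl1, Adcy1, Homer2 and Nucb2 ended without GFP library 1 and without GFP library 2. Most calls over all genes ended in both of these fits too.

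**Figure D4:**
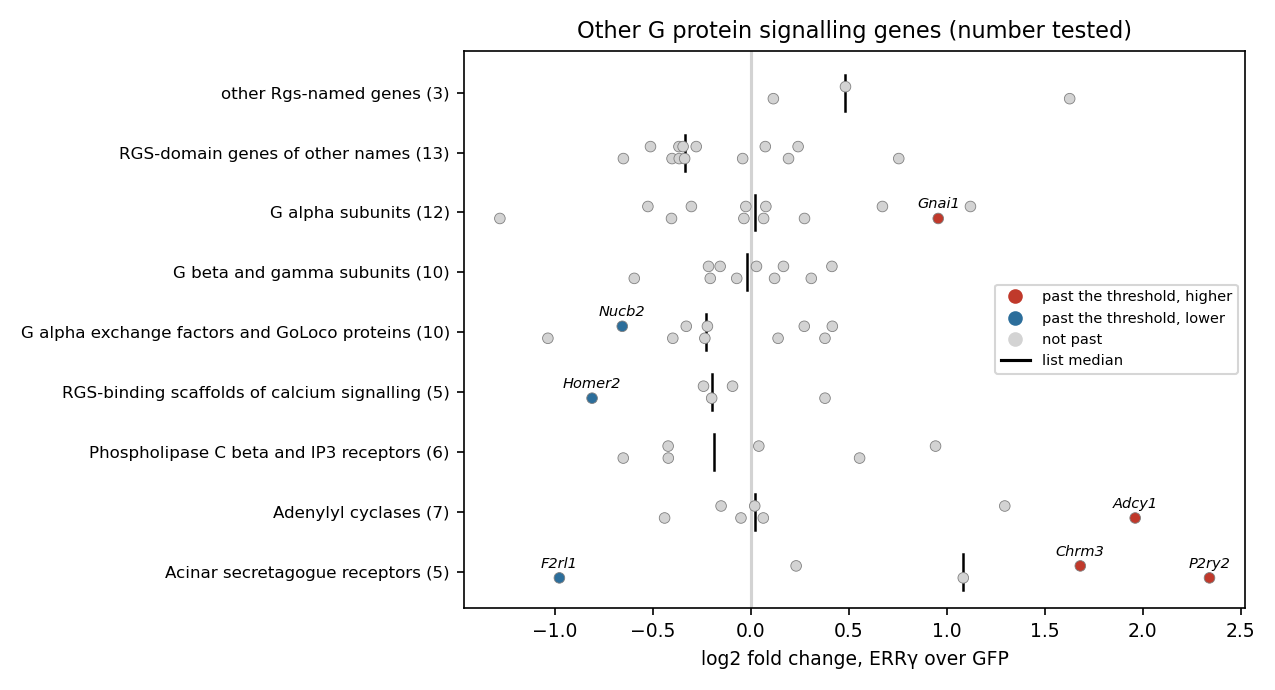
Log2 fold change of ERRγ over GFP for each tested gene of the 9 lists, with the number tested in brackets and a black bar at each list's median; red genes were past the threshold and higher, blue ones past it and lower. The 7 coloured genes are P2ry2, Chrm3, Adcy1 and Gnai1 on the right and F2rl1, Homer2 and Nucb2 on the left.

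Over all marker lists, 4 of 49 tested genes passed the threshold, or 8.16%, against 6.84% of all genes. None of 7 tested fibroblast and stellate markers, 5 endothelial markers, 6 islet markers or 2 glia and nerve markers passed. Of 11 tested acinar markers Prss2 rose, and of 7 duct markers Cftr rose and Krt7 fell. The fibroblast list summed to 629 and 552 CPM in ERRγ cells, against 747 and 509 CPM in GFP cells, the endothelial list to 16.2 and 16.0 CPM in ERRγ cells, against 18.1 and 7.62 CPM in GFP cells, and the glia and nerve list to 70.5 and 79.4 CPM in ERRγ cells, against 97.2 and 60.2 CPM in GFP cells.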

How the data were processed

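For each of 4 libraries the authors deposited a table that pairs gene symbols with raw counts, which are whole numbers and not normalized. Libraries came from 500 ng RNA with a Lexogen QuantSeq kit, per the labels' protocols; the submitters' processing notes name Bowtie2, edgeR and mm10, without versions. Which counter, annotation and strand setting were used is not given in the sources used here. Tests on the counts used edgeR 4.0.16 under R 4.3.3: filterByExpr with a minimum count of 10 kept 13070 rows, library sizes were scaled by TMM, and glmQLFit and glmQLFTest fitted the group as the only term, on 4 libraries, which leaves 2 residual degrees of freedom. Tests are two-sided, with Benjamini-Hochberg adjustment over all genes and a threshold of 0.05. The SE is the log2 fold change over the square root of F. Alternatives were library totals, other filters, DESeq2 1.42.0, limma-voom (limma 3.58.1), each library left out, and the replicate number as a block. Positions come from GENCODE M21 (GRCm38), matched by symbol for 10 of 10 members. The members, the gene lists and the rule for named genes were chosen with earlier results of these data known. The rule named all members, Rgs-named genes with at least 10 counts in a library, Esrrg, up to 4 genes past the threshold and the most counted one of each signalling list, the 5 genes most like Rgs20, and overlapping or neighbouring genes. Markers, Rgs-named genes with fewer counts and the cholecystokinin receptors fall outside it and were named after their values were seen. Depth was 10105604 to 11012351 counts per library, and a floor of 3 counts is 0.267 to 0.307 CPM. Intervals and floors cover counting error only.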

Additional observations from a re-analysis of the deposited data

How the results depend on the processing

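Rgs12 kept its log2 fold change between −1.29 and −1.18 in all 10 alternatives, and Rgs20 kept its own between 3.51 and 3.81 in the 9 that tested it. The number of members called higher was 1, and 0 with the filter of at least 5 CPM, which leaves Rgs20 out by its construction. Leaving out a library gave 0 to 2 members higher and 0 to 1 lower, 70 to 1565 genes higher and 5 to 1063 lower over all genes (661 and 233 with all libraries), and 1 to 7 genes higher and 0 to 6 lower over the signalling lists (4 and 3 with all libraries). A lone library is assumed to vary like the remaining pair: the low ends came without a GFP library, when the ERRγ pair sets the spread, and the high ends without an ERRγ library, when the GFP pair does. Without a filter on low counts 1271 genes were higher and 738 lower. With the replicate number as a block, 776 genes were higher and 315 lower, Rgs20 and Rgs12 among them; the numbers are not known to pair the libraries, and same-numbered libraries deviated with a correlation of 0.007. Of 256 single-gene values under the alternatives, 225 kept direction and side of the threshold. The 9 that turned sign all belonged to genes not past the threshold with a library left out: the ranges were −0.71 to 0.12 for Rgs4, −0.35 to 0.49 for Rgs5, −0.0029 to 0.69 for Rgs16, −0.51 to 0.15 for Rgs19, −0.20 to 0.53 for Rgs11, −0.027 to 0.19 for Gnas and −0.13 to 0.16 for Adcy6. Esrrg ranged from 3.81 to 7.12. The cause of these changes was not tested. At this depth, Rgs14, Rgs6, Rgs9 and the GFP level of Rgs20 rest on a few counts.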
